A study of Tupaia belangeri with 15 samples.

Results

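Semaphorins, plexins and neuropilins were followed through the retina of the tree shrew (TS, Tupaia belangeri), a small diurnal mammal whose photoreceptors are mostly cones. Members were listed by gene name, with earlier results of these data known. Of 31 names looked for among the 83605 features of the deposited matrices, 30 were found under their own symbol, 28 of these had counts, and SEMA4G was found neither by name nor as a numbered copy. SEMA6B and PLXNB3 were listed at 0, SEMA4C had 2 UMIs (unique molecular identifiers, the counted transcripts) and PLXNB2 had 30 UMIs over all libraries. A listed 0 carries no information here, because housekeeping genes such as TPI1 and RPS18 were listed at 0 too. The data were single-nucleus RNA libraries of 15 frozen whole retinas, 5 of each stage, with no strain, genotype or treatment given for any of them. Ages in months ran from 1.4 to 2.1 in the Infancy stage, from 24.96 to 36 in the Mature stage and from 85.8 to 86.56 in the Senile stage. They are given here by stage and not by retina. Senile animals came from another institute than the Infancy and Mature animals, so that stage and source cannot be told apart in any comparison with the Senile retinas.

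Semaphorins are guidance proteins that share a sema domain. Class 3 members are secreted, classes 4, 5 and 6 span the membrane, and SEMA7A is held to the membrane by a lipid anchor. Plexins are their receptors and act on the cytoskeleton of the receiving cell, and the neuropilins NRP1 and NRP2 serve as co-receptors through which most class 3 semaphorins reach A-type plexins. In the developing mouse retina, SEMA6A with PLXNA2 and PLXNA4 is known for the sorting of neurites into sublayers of the inner plexiform layer, and SEMA5A and SEMA5B are known for keeping neurites of inner neurons within that layer.

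The 15 libraries held 13429873 to 58734300 UMIs, with medians of 1461 to 5611 UMIs per barcode. Nuclei were sorted into 9 classes by the UMIs of 84 marker genes, among which there was no member, and 86376 nuclei (72.1% of those within the limits on gene number) were kept: 14100 cones, 878 rods, 25516 bipolar cells (BCs), 1210 horizontal cells (HCs), 30083 amacrine cells (ACs), 6159 retinal ganglion cells (RGCs), 6509 Müller cells, 1187 astrocytes and 734 microglia. In each class the summed level of its own markers was the highest of the 9 classes, which follows from the gate and is no check of it. In RGCs the BC markers summed to 1654 CPM, above the RGC markers at 1544 CPM. GAD2, a defining marker of ACs, was listed at 0. Mature 4 and Senile 3 stood apart, with 23.6% and 31.9% of their nuclei in unnamed, vascular or pigment groups against 1.54% to 5.69% in the others. A group of 2143 nuclei led by the pigment epithelium markers TTR and RPE65 came to 74.0% from Senile 3. An unnamed group of 3057 nuclei came to 53.6% from Mature 4. Classes were thin in some retinas, with 10 to 147 astrocytes and 0 to 113 rods in each. Between any pair of libraries at most 30 barcodes were shared. The submitters' notes give Cell Ranger 5.0.1 for 7 retinas (Infancy 1 to 3, Mature 1 and 2, Senile 1 and 2) and 7.0.1 for the other 8, and this label is used below as a processing batch. Retinas of these labels also differed in depth and in numbers of nuclei. Median UMIs per barcode were 1461 to 3068 under 5.0.1 and 2268 to 5611 under 7.0.1. RGCs numbered 540 to 772 per retina under 5.0.1 and 36 to 299 under 7.0.1.

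Levels are given as CPM, the UMIs of a gene per 1000000 UMIs of a class in a retina. Because lengths of these gene models were not used, levels are compared between classes for 1 gene and not between genes. The map of mean levels by class showed a separate distribution for most members. By the mean of log2(CPM + 1) over retinas, and of 26 members with at least 100 UMIs, astrocytes held the highest level of 5, Müller cells of 5, cones of 5, ACs of 3, BCs of 2, HCs of 2, rods of 2, RGCs of 1 and microglia of 1. Over all features the highest class was cones in 19.5%, RGCs in 15.1%, ACs in 14.9%, BCs in 12.7%, Müller cells in 12.5%, microglia in 8.82%, rods in 6.12%, HCs in 5.27% and astrocytes in 5.10%. By the mean of CPM itself the highest class was another one for 5 members (SEMA3F, SEMA3G, SEMA4F, PLXNA3 and PLXNB1). Over 19 settings of gate and retinas the highest class of PLXNB1 was the same in 9 and that of SEMA3G in 12. The highest class was compared with the next one within each retina by a 2-sided exact sign-flip permutation test, with adjustment over all 29317 features with as many UMIs. Of the 26 differences 17 passed an adjusted p of 0.05, beside 36.7% of all features, and both classes had been picked by their means for every feature. They were 5 of the 5 members highest in astrocytes, 4 of 5 in Müller cells, 2 of 5 in cones, 0 of 3 in ACs, 1 of 2 in BCs, 2 of 2 in HCs, 1 of 2 in rods and the single members of RGCs and microglia. The share of all features that passed is not given here for each highest class. These counts are therefore not compared between classes. The 3 members of ACs (SEMA4F, PLXNA3 and NRP1) had unadjusted p of 0.723, 0.11 and 0.518 by the exact sign-flip permutation. By edgeR's quasi-likelihood test with Benjamini-Hochberg adjustment over all 13639 features, each class was also set against the mean of the other classes. Of 216 tests of 24 members, 174 passed (80 higher, 94 lower), beside 61.3% of all tests of all features, so that differences between classes were common among all genes. In the retinas of the Cell Ranger 5.0.1 label alone 127 tests passed and in those of 7.0.1 alone 158. The share of all features that passed in these fits is not given here, so these counts are not read against the 61.3%. Cones had 24 of 24 members past the threshold, 6 higher and 18 lower (beside 78.3% of all features), and the median difference of the members there was -1.35 on the log2 scale beside 0.01 for all features. In Müller cells 13 members were higher and 6 lower (beside 64.1%), with a median difference of 1.32 against 0.02. ACs and RGCs each had 14 higher and 7 lower members (beside 68.9% and 70%), and astrocytes 13 higher and 6 lower (beside 50.1%). Over all features 6136 were higher and 3256 lower in ACs, 6020 and 3529 in RGCs and 3035 and 3796 in astrocytes. Lower members prevailed in rods (14 of 24, with 3 higher, beside 52.2%), HCs (14, with 5 higher, beside 49.5%), BCs (12, with 7 higher, beside 65.7%) and microglia (10, with 5 higher, beside 53%). Over all features 4040 were lower and 3083 higher in rods, 3653 and 3098 in HCs, 3564 and 5403 in BCs and 5026 and 2198 in microglia. In ACs, RGCs, rods, HCs and microglia the members thus split in the direction of all features. That direction is not read there as particular to the members.

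**Figure D1:**
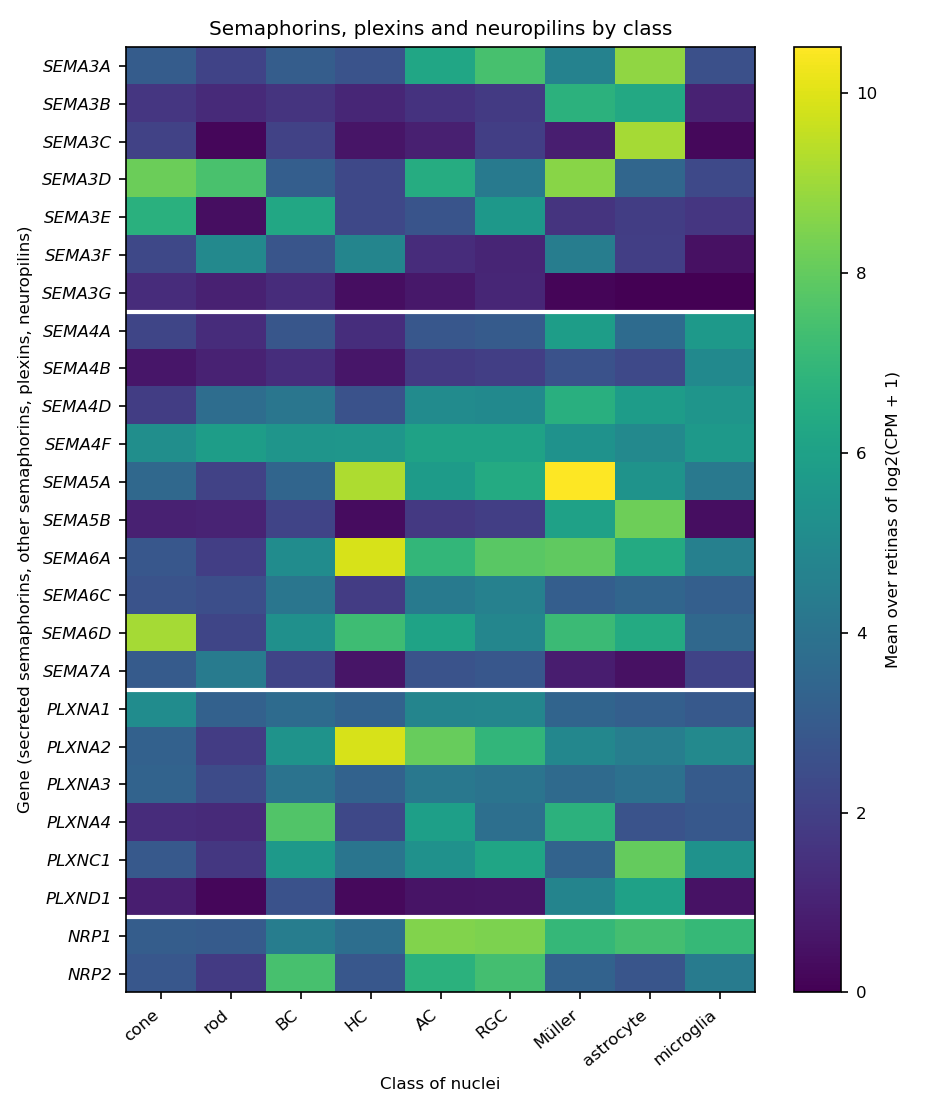
Mean over the retinas of log2(CPM + 1) for 25 members (rows, grouped as secreted semaphorins, other semaphorins, plexins and neuropilins) in the 9 classes of nuclei (columns). Rows peak in different classes: SEMA3C reaches a mean of 577 CPM in astrocytes, SEMA5A 1479 CPM in Müller cells, SEMA6A and PLXNA2 965 and 981 CPM in HCs and SEMA6D 557 CPM in cones.

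Among the secreted semaphorins, SEMA3C (TSDBGID.23270) was a gene of astrocytes. In astrocytes its level ran from 383 to 1127 CPM over the 15 retinas with a median of 533, and no retina exceeded 21.0 CPM in cones, the next class. Its astrocyte level lay 8.26 above the mean of the other classes on the log2 scale (SE 0.164, edgeR adjusted p = 7.49e-83), and it was 7.01 ± 1.21 (SD) above that of cones within retinas, in 15 of 15 (p = 6.1e-05 by the exact sign-flip permutation, the minimum with 15 retinas). SEMA3A, the prototype of axon repellents that act through NRP1, was also highest in astrocytes, at 461 ± 170 CPM (SD, n = 15 retinas), followed by RGCs at 180 ± 39.4 CPM, ACs at 74.6 CPM and Müller cells at 30.2 CPM. The step from astrocytes to RGCs held in 15 of 15 retinas. SEMA3B, another neuropilin ligand, was shared by the glia: Müller cells had 110.2 ± 28.9 CPM and astrocytes 88.4 ± 54.0 CPM, while the mean was below 4 CPM in the other 7 classes.

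SEMA3D was high in Müller cells and photoreceptors, and SEMA3E in cones, BCs and RGCs. SEMA3D stood at 425 ± 153 CPM in Müller cells, 289.6 ± 46.8 CPM in cones, 187 ± 65.8 CPM in rods and 94.0 CPM in ACs, and Müller cells exceeded cones in 12 of 15 retinas (log2 difference 0.49, p = 0.00134 by the exact sign-flip permutation). SEMA3E, which binds PLXND1 without a neuropilin, averaged 121 ± 71.9 CPM in cones, 82.2 ± 34.8 CPM in BCs and 49.3 ± 11.4 CPM in RGCs, against 0.912 CPM in rods. Cones and BCs did not differ beyond their spread (cones higher in 11 of 15 retinas, adjusted p = 0.183 from the exact sign-flip permutation). Most BC counts of SEMA3E lay outside the ON and OFF BCs described further on. SEMA3F, a ligand of NRP2, was at 37.8 ± 34.8 CPM in HCs, 35.7 ± 20.4 CPM in rods (highest by the mean of log2 values) and 22.3 ± 7.88 CPM in Müller cells, and its rods and HCs did not differ beyond their spread either (rods higher in 8 of 14, p = 0.283 by the exact sign-flip permutation). SEMA3G had 486 UMIs in all and no class mean above 2.49 CPM. Free RNA in the droplets can bring levels of a few CPM into any class, and its share in these low values was not tested.

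Among the membrane semaphorins, SEMA5A (TSDBGID.6084), with thrombospondin repeats outside the cell, was a gene of Müller cells and HCs. Its level in Müller cells ran from 1071 to 1868 CPM with a median of 1502, and HCs followed at 653 ± 289 CPM with a range of 282 to 1353 CPM. No other class had a mean above 86.3 CPM. The Müller level was 5.39 above the mean of the other classes (log2; SE 0.106, edgeR adjusted p = 7.03e-84) and was above that of HCs in 15 of 15 retinas. SEMA5B (TSDBGID.3491), its closest relative, was distributed otherwise, with 178 to 476 CPM in astrocytes (median 273), 28.3 to 125 CPM in Müller cells and a mean of 0.47 CPM in HCs. The astrocyte level exceeded the mean of the other classes by 6.58 (log2; SE 0.144, edgeR adjusted p = 6.03e-78).

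SEMA6A, the ligand of PLXNA2 and PLXNA4, reached 965 ± 196 CPM in HCs, with 700 CPM in the lowest retina and 1387 CPM in the highest. Müller cells (248 ± 51.0 CPM) and RGCs (229.9 ± 40.2 CPM) came next and ACs had 124 ± 18.9 CPM, whereas photoreceptors held 6.58 CPM in cones and 7.48 CPM in rods. HCs lay 1.96 ± 0.16 (SD, log2) above Müller cells, and every retina showed this order. SEMA6A has 48650 UMIs of its own beside 22177 UMIs of 2 antisense features, and the strand setting of the counting is not given in the sources used here, so that its counts carry some uncertainty. SEMA6D, a ligand of PLXNA1, was by contrast a cone gene at 557 ± 66.9 CPM (438 to 678.5 CPM), followed by HCs at 158 ± 44.7 CPM and Müller cells at 144 ± 19.5 CPM, and it was at 8.65 CPM in rods. SEMA6C was low in every class, with its maximum of 24.0 ± 4.46 CPM in RGCs (12 of 15 retinas above ACs, adjusted p = 0.00948 by the exact sign-flip permutation).

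SEMA4A, SEMA4B and SEMA4D were highest in Müller cells or microglia, and SEMA4F was not. SEMA4D, the ligand of PLXNB1, averaged 103 ± 25.1 CPM in Müller cells, 62.0 ± 36.5 CPM in microglia and 60.0 ± 26.6 CPM in astrocytes, and 2.97 CPM in cones. SEMA4A, which is needed for photoreceptor survival in mice, stood at 60.3 ± 22.9 CPM in Müller cells and 58.3 ± 33.0 CPM in microglia, which did not differ beyond their spread (Müller cells higher in 9 of 15, p = 0.553 by the exact sign-flip permutation), and its means in cones and rods were 3.71 and 2.92 CPM. SEMA4B was highest in microglia at 34.9 ± 19.3 CPM, above Müller cells in 15 of 15 retinas. SEMA4F was present in every class, with means between 34.7 and 69.2 CPM, and ACs and RGCs could not be separated (ACs higher in 8 of 15, p = 0.723 by the exact sign-flip permutation). Against the mean of the other classes it was higher in ACs and RGCs, by 0.66 in each, and lower in astrocytes (-0.70), microglia (-0.49) and cones (-0.28; log2, edgeR). SEMA7A, the lipid-anchored ligand of PLXNC1, had its maximum of 28.7 ± 22.4 CPM in rods, above cones (8.05 CPM) in 12 of 14 retinas (p = 0.0061, exact sign-flip permutation). Senile 1 had no rod nuclei and does not enter values of rods.

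Among the receptors, PLXNA2 (TSDBGID.10610) was the plexin of HCs. Its level there ran from 544 to 1551 CPM with a median of 828, and ACs had 276 ± 55.1 CPM, RGCs 123 ± 39.4 CPM and BCs 42.5 CPM. HCs were 4.77 above the mean of the other classes (log2; SE 0.0779, edgeR adjusted p = 4.35e-93) and above ACs in 15 of 15 retinas. HCs thus held the highest level of both SEMA6A and PLXNA2. PLXNA4 (TSDBGID.22712) was highest in BCs as a whole class, although ON BCs held a mean of 12.8 CPM. The level of all BCs lay between 155.5 and 245 CPM with a median of 198, and was followed by Müller cells at 108 ± 24.4 CPM and ACs at 61.7 ± 9.44 CPM, and it was at 13.8 CPM in RGCs and 1.94 CPM in cones. The BC level exceeded the mean of the other classes by 3.97 (log2; SE 0.0915, edgeR adjusted p = 8.45e-76). PLXNA4 is also covered by 9 antisense features with 9414 UMIs beside 35533 UMIs of its own, with the same uncertainty.

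PLXNC1, the receptor of SEMA7A, and PLXND1, the receptor of SEMA3E, were both highest in astrocytes among the 9 classes. Vascular and pigment cells (2423 nuclei) were set aside and are not ranked. PLXNC1 had 264 ± 69.8 CPM there, 73.0 ± 10.0 CPM in RGCs and 51.4 CPM in BCs, and astrocytes exceeded RGCs in 15 of 15 retinas. PLXND1 (TSDBGID.26427) ran from 21.6 to 113.5 CPM in astrocytes with a median of 70.7, and stood at 28.9 ± 14.4 CPM in Müller cells, 6.42 CPM in BCs and below 2 CPM in each of the other 6 classes. Its astrocyte level was 5.47 above the mean of the other classes (log2; SE 0.226, edgeR adjusted p = 1.29e-47). PLXNA1 was highest in cones, at 34.4 ± 9.29 CPM, above RGCs (29.2 CPM) in 13 of 15 retinas. PLXNA3 had class means between 7.26 CPM in rods and 22.7 CPM in astrocytes. Of the B-type plexins, which bind class 4 semaphorins, PLXNB1 had 171 UMIs in all and no class mean above 0.61 CPM. Together with SEMA3G, SEMA4C, SEMA6B, PLXNB2 and PLXNB3 it was in no fit across genes because of low counts.

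NRP1 (TSDBGID.12693), which also binds vascular endothelial growth factor, was highest in ACs (381.5 ± 127 CPM) and RGCs (354 ± 62.2 CPM), which did not differ beyond their spread (ACs higher in 8 of 15, p = 0.518 by the exact sign-flip permutation). Astrocytes, microglia and Müller cells had means of 172, 167 and 152 CPM. In cones it ran from 1.71 to 24.9 CPM with a median of 6.39, and the log2 difference from the mean of the other classes was -3.15 (SE 0.173, edgeR adjusted p = 3.69e-36). NRP2 (TSDBGID.4013) was highest in BCs and RGCs among whole classes, below its level in starburst ACs (455 CPM), a subclass described further on. BCs had 114 to 245 CPM with a median of 175, RGCs had 168 ± 40.0 CPM (BCs above RGCs in 11 of 15, p = 0.0789 by the exact sign-flip permutation) and ACs 108 ± 27.8 CPM, with class means of at most 37.6 CPM elsewhere. BCs were 3.12 above the mean of the other classes (log2; SE 0.112, edgeR adjusted p = 1.49e-54).

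The differences from the mean of the other classes were smaller when nuclei with markers of several classes were kept. They were then 6.93 for SEMA3C and 5.71 for SEMA5B in astrocytes, 4.24 for SEMA5A in Müller cells, 3.76 for PLXNA2 in HCs, 4.70 for PLXND1 in astrocytes, 3.04 for PLXNA4 and 2.10 for NRP2 in BCs and -1.75 for NRP1 in cones. In the 5.0.1 retinas alone SEMA3C, SEMA5B and PLXND1 in astrocytes differed by 9.98, 8.08 and 6.99 and NRP1 in cones by -3.97, and PLXND1 was at 6.53 without Mature 4 and Senile 3. All of these passed.

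**Figure D2:**
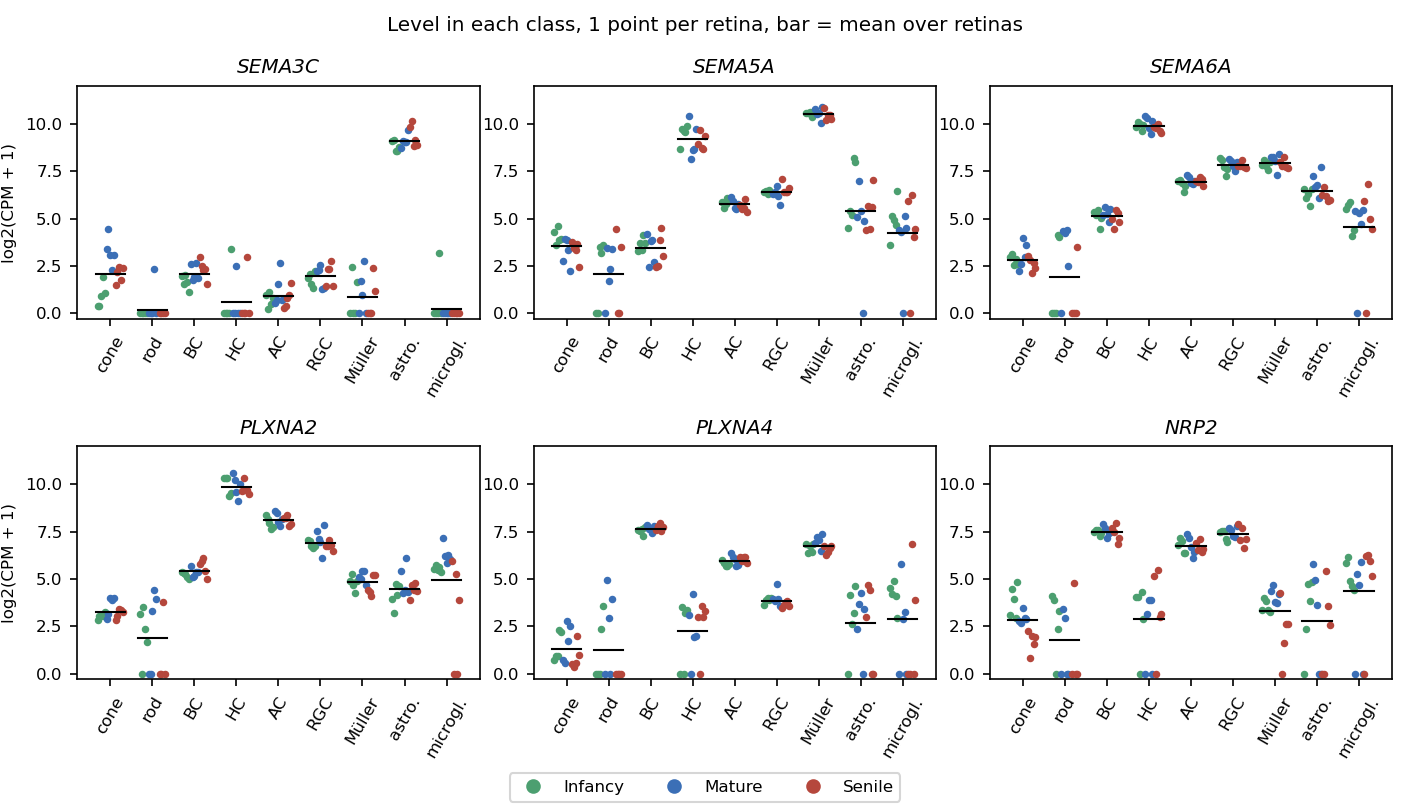
Level of 6 members, as log2(CPM + 1), in each class, with 1 point per retina coloured by stage and a bar at the mean over retinas. SEMA3C is separated in astrocytes from every other class, SEMA5A is high in Müller cells and HCs, SEMA6A and PLXNA2 peak in HCs, PLXNA4 in BCs, and NRP2 in BCs and RGCs with means of 179.6 and 168 CPM.

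Subclasses of the same retinas were compared next, as defined by markers that hold no member: ON against OFF BCs, starburst ACs and SLC6A9-high ACs each against other ACs, and S-cones against L-cones. The other ACs were 7 of 12 marker groups of ACs, and 3 groups with intermediate markers (7790 nuclei) were in no arm of these comparisons, 1 of them led by GRM8 and CHAT. In all 40 of 55 tests of members passed (15 higher, 25 lower, edgeR's quasi-likelihood test with the retina as a block), beside 35.8% of the tests of all features. Within the 5.0.1 and 7.0.1 labels alone 32 and 31 tests passed. The share of all features in these fits is not given here, and some members had too few counts to be tested within a label. In BCs, which pass photoreceptor signals to the inner retina and depolarize (ON) or hyperpolarize (OFF) to light, 12 of 14 members differed between 11058 ON and 8000 OFF nuclei (7 higher in ON, 5 lower, beside 46.9% of all features). PLXNA4 separated both sides in every retina, with 166 to 304 CPM in OFF BCs (median 234) and 5.31 to 24.2 CPM in ON BCs (median 12.3), a log2 difference of -4.45 (SE 0.136, edgeR adjusted p = 5.44e-20). PLXNC1 ran the other way, with 49.1 to 113 CPM in ON BCs (median 79.8) and 3.55 to 16.04 CPM in OFF BCs (median 6.44), a difference of 3.40 (SE 0.132, edgeR adjusted p = 8.11e-18). Neither pair of ranges overlapped.

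SEMA6A and SEMA6D were opposed in the same way. SEMA6A had 38.3 ± 12.7 CPM in ON BCs and 12.9 ± 8.32 CPM in OFF BCs, with a log2 difference of 1.53 (SE 0.178, edgeR adjusted p = 4.39e-08) and 14 of 15 retinas in this direction. SEMA6D had 25.0 ± 7.08 CPM in ON BCs and 73.0 ± 26.3 CPM in OFF BCs, was lower in ON BCs in 15 of 15 retinas and differed by -1.56 (SE 0.0886, edgeR adjusted p = 2.6e-14). ON BCs were thus higher in SEMA6A and lower in its receptor PLXNA4. Of the co-receptors, NRP2 was higher in ON BCs in 15 of 15 retinas (209 against 122 CPM, log2 difference 0.69), and NRP1 was low on both sides (11.3 and 14.8 CPM, log2 difference -0.46, edgeR adjusted p = 0.0109). SEMA3E (18.7 against 6.82 CPM) and SEMA3A (11.8 against 5.45 CPM) were higher in ON BCs, by 1.22 (SE 0.252) and 1.21 (SE 0.231). So were PLXNA3 (17.1 against 12.8 CPM), by 0.47 (SE 0.117), and PLXNA1 (12.3 against 10.03 CPM), by 0.38 (SE 0.131). The comparison of SEMA3E leaves out most of its BC counts. Of 4828 SEMA3E UMIs in all BCs, 453 were in ON BCs and 134 in OFF BCs. SEMA4D (18.2 against 22.3 CPM) and PLXNA2 (49.25 against 53.8 CPM) were lower, with log2 differences of -0.34 (SE 0.126) and -0.30 (SE 0.0753). The edgeR adjusted p of these 6 ran from 7.68e-05 to 0.031. The call of SEMA4D was lost without any 1 of Infancy 2 to 5, Mature 3 or Mature 5 (edgeR adjusted p = 0.0529 to 0.0715), that of PLXNA1 without Infancy 1 (0.0504) or Senile 5 (0.0669) and that of NRP1 without Infancy 4 (0.0524). Without the filter on low counts PLXNA1 and SEMA4D were lost (0.0665 and 0.0623), and SEMA4D was lost with nuclei of mixed markers kept (0.0507, all by edgeR). Within the 5.0.1 label alone PLXNA1, PLXNA2, PLXNA3 and SEMA4D did not pass (edgeR adjusted p = 0.217, 0.0744, 0.111 and 0.397), and within the 7.0.1 label PLXNA1 did not (0.137). NRP1 and SEMA3A had too few counts to be tested in the 5.0.1 retinas, and SEMA3A was tested in 9 of the 15 fits that left out 1 retina. The difference of PLXNA2 turned to 0.12 under a stricter gate. In the 5.0.1 retinas the difference of PLXNA4 was -3.86 and that of SEMA3E 1.97, and both passed.

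Within BCs the levels were not even over the 9 marker groups from which the subclasses were built, and 3 of these groups met the rule of neither side. The groups named here were chosen after their values were seen and are described without a test. SEMA3E was concentrated in 1 of them, a group of 1662 nuclei led by the markers CA10 and VSX1. There it ran from 472 to 914 CPM over the 15 retinas (median 719), and no other BC group exceeded a median of 74.5 CPM or 397 CPM in any retina, so that the ranges did not overlap. That group had GRM6 at 5.9 CPM and TRPM1 at 73.0 CPM, near the OFF groups (2.44 to 5.16 and 12.3 to 109 CPM). The ON groups had 49.2 to 62.8 and 565 to 670 CPM. Its GRIK1 (4131 CPM) lay between the ON groups (104 to 155 CPM) and the OFF groups (31659 to 50157 CPM). NRP1 was highest in the same group, at a median of 107 CPM against at most 27.55 CPM in the others, with overlapping ranges. PLXNA4 was highest in another group of neither side, 2544 nuclei led by NETO1 and VSX1, at 451 to 724 CPM (median 630), and it did not exceed a median of 9.92 CPM in any of the 3 ON groups. NRP2 was near absent from a single OFF group, led by GRIK1, NETO1 and MEIS2, at 0 to 29.9 CPM (median 13.96), where the other 8 groups had medians of 128 to 250.1 CPM. PLXNC1 was uneven among ON BCs, with a median of 155 CPM in the VSX1-led group and of 48.9 and 25.1 CPM in the others.

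**Figure D3:**
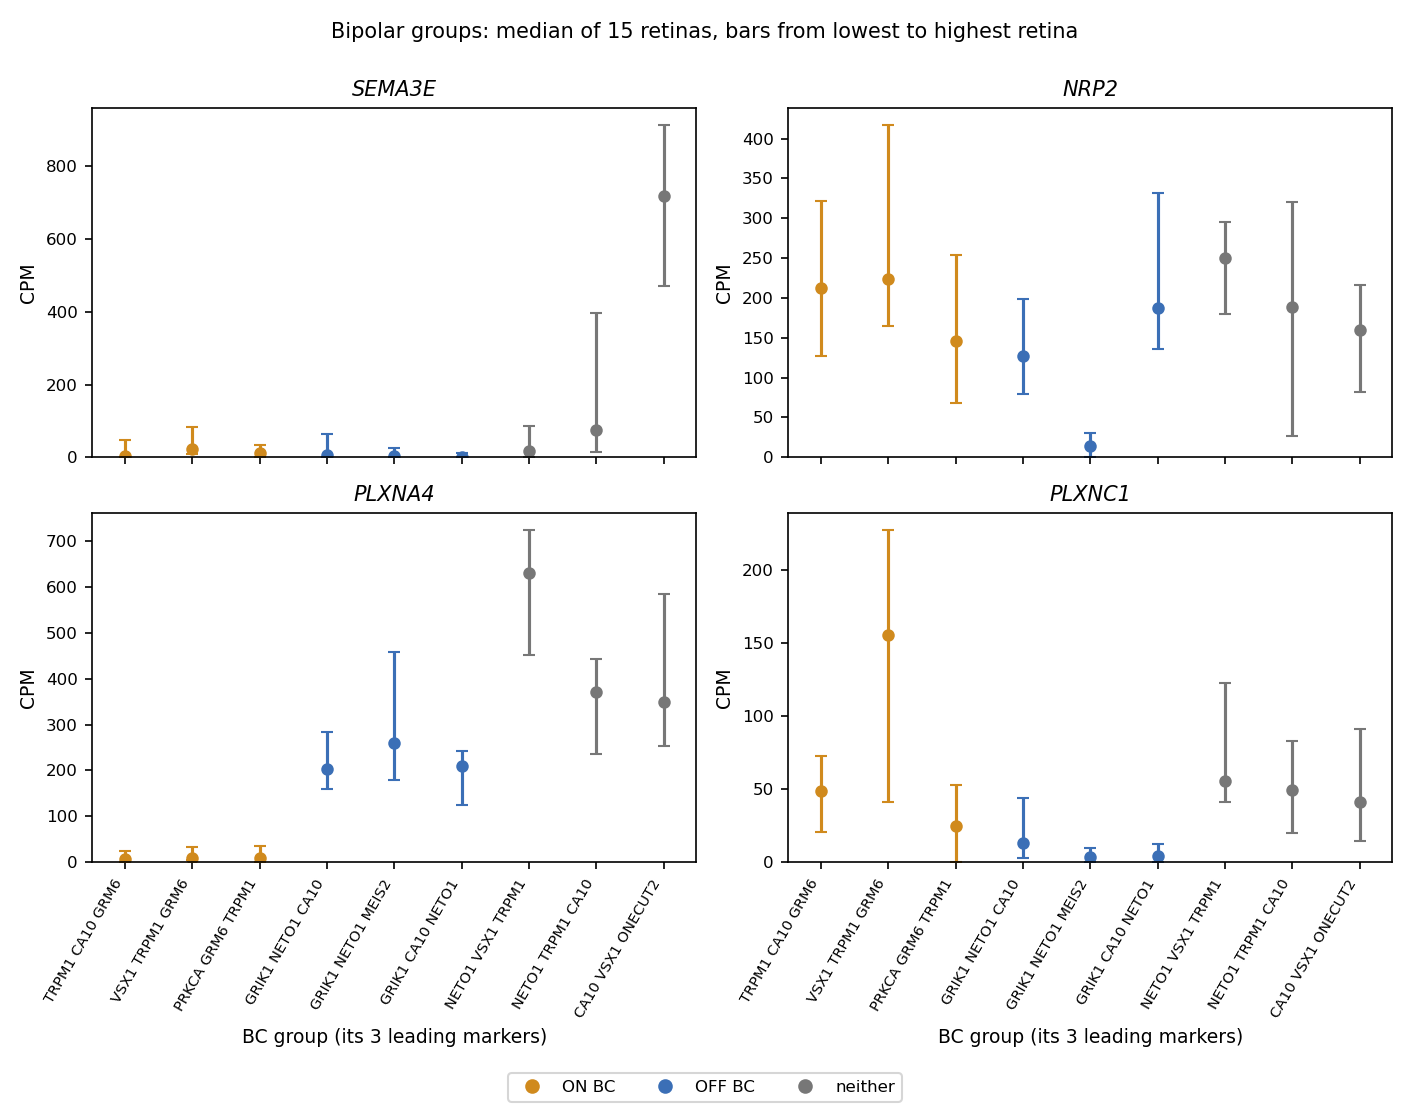
Level in CPM of SEMA3E, NRP2, PLXNA4 and PLXNC1 in the 9 marker groups of BCs, each named by its 3 leading markers, with a point at the median of 15 retinas and bars from the lowest to the highest retina; colours give ON BCs, OFF BCs and groups of neither side. SEMA3E stands out in the CA10 VSX1 ONECUT2 group (472 to 914 CPM), NRP2 is near 0 in the GRIK1 NETO1 MEIS2 group and PLXNA4 is low in all 3 ON groups.

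Starburst ACs, the cholinergic neurons of the circuit for motion direction, were compared with other ACs (3049 and 16974 nuclei). Of 17 members 14 differed, 2 higher and 12 lower, beside 46.9% of all features. NRP2 was the member that rose most, at 273 to 709 CPM (median 409.8) against 51.8 to 95.8 CPM (median 63.8) in other ACs, with no overlap and a log2 difference of 2.76 (SE 0.0722, edgeR adjusted p = 1.32e-21). SEMA7A was higher too, at 14.6 ± 11.4 against 8.48 ± 7.05 CPM (13 of 15 retinas, log2 difference 0.96), but this was 0.40 and no longer passed under a stricter gate (edgeR adjusted p = 0.22). SEMA6A was at 9.35 to 34.8 CPM (median 18.1) against 88.6 to 197 CPM (median 145), a difference of -2.65 (SE 0.141, edgeR adjusted p = 5.12e-15) that was -3.32 within the 5.0.1 label. Its receptor PLXNA4 fell by 1.60 on the log2 scale (26.4 against 80.8 CPM) and PLXNA2 by 0.29 (225 against 292 CPM), each lower in 15 of 15 retinas. PLXNC1 had 5.88 CPM against 42.1 CPM (log2 difference -2.72), SEMA5A 18.4 against 71.6 CPM (-1.88), SEMA6D 28.6 against 72.6 CPM (-1.38) and NRP1 119.7 against 232 CPM (-0.93), all lower in 15 of 15 retinas. SEMA4D had 24.2 against 39.7 CPM (log2 difference -0.58, SE 0.0946, edgeR adjusted p = 9.4e-06) and SEMA4A 4.99 against 7.10 CPM (-0.56, SE 0.187, 0.0157). SEMA4F had 52.2 against 64.9 CPM (-0.29, SE 0.0782, edgeR adjusted p = 0.00323), PLXNA1 22.2 against 29.2 CPM (-0.34, SE 0.115, 0.0179) and SEMA3A 30.7 against 37.8 CPM (-0.38, SE 0.151). The call of PLXNA1 was lost under a stricter gate (edgeR adjusted p = 0.128) and within either label alone (0.0796 and 0.127), that of SEMA4A within the 5.0.1 label (0.101) and that of SEMA4F within the 7.0.1 label (0.0712). SEMA4A and SEMA7A had too few counts to be tested in the 7.0.1 retinas. SEMA3A passed narrowly (edgeR adjusted p = 0.0438). Its call was lost without any 1 of Infancy 4, Infancy 5, Mature 2, Mature 3 or Mature 5 (edgeR adjusted p = 0.0507 to 0.124) and without the nuclei of highest UMI counts (0.0745), and in the retinas labelled Cell Ranger 5.0.1 alone its difference was 0.14.

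SLC6A9-high ACs, rich in the glycine transporter GlyT1, differed from other ACs in 11 of 15 members (5 higher, 6 lower), beside 29.5% of all features. This group was uneven between batches, with 135 to 414 nuclei in each retina labelled 5.0.1 and 9 to 88 in each labelled 7.0.1, and 14 retinas entered. NRP1 reached 465 to 1194 CPM (median 880.5) against 140 to 388 CPM (median 204), a log2 difference of 1.95 (SE 0.126, edgeR adjusted p = 4.16e-18) without overlap, and this was 2.40 in the retinas of the 5.0.1 label and 1.40 in those of the 7.0.1 label. Its ligand SEMA3A was higher in 12 of 14 retinas (162 ± 77.0 against 37.2 ± 11.6 CPM, log2 difference 2.14, edgeR adjusted p = 2.26e-16), a difference that was 1.22 within the 7.0.1 label and 3.04 under a stricter gate. High levels of both were not particular to this group among ACs: in the 3 groups outside the comparison NRP1 had medians of 467.5, 824 and 1083 CPM and SEMA3A of 50.3, 176 and 363 CPM. SEMA3D (12.8 against 118 CPM, log2 difference -3.98), PLXNA4 (9.39 against 81.5 CPM, -2.68) and SEMA5A (10.9 against 71.2 CPM, -2.49) were lower, each past the threshold within both labels, with differences of -2.64, -4.85 and -3.33 in the 7.0.1 retinas. Of the smaller differences, PLXNC1 (65.8 against 41.55 CPM, 0.76, SE 0.127), SEMA6C (25.2 against 16.95 CPM, 0.58, SE 0.184) and SEMA4F (91.2 against 66.5 CPM, 0.36, SE 0.106) were higher in the fit of 14 retinas. SEMA6A (97.6 against 139.6 CPM, -0.82, SE 0.122), SEMA6D (52.7 against 73.85 CPM, -0.52, SE 0.138) and PLXNA2 (256 against 292 CPM, -0.34, SE 0.0848) were lower. The edgeR adjusted p of these 6 ran from 2.6e-07 to 0.0124, and none passed in the 7.0.1 retinas alone. The call of SEMA4F was also lost without Infancy 1 (edgeR adjusted p = 0.0538) and that of SEMA6C without Mature 1 (0.0542), and without the filter on low counts neither passed (0.12, adjusted p = 0.75 and 0.35, adjusted p = 0.299 by edgeR). That of SEMA6D was lost under a stricter gate (edgeR adjusted p = 0.18).

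Levels also varied over the 12 marker groups of ACs, which are described in the same way, without a test. SEMA3A had its highest AC level in a group led by GRM8 and CHAT, with 257 to 564 CPM over 15 retinas (median 363), and its lowest in the large group led by MEIS2 and PAX6, with a median of 14.45 CPM. In the GRM8 and CHAT group the third highest AC marker lay 0.503 above the level of all nuclei (log2), beside 0.94 to 2.079 in the other AC groups. Its leading markers also held COL1A2 and DCN, of the fibroblast list. In a group led by SPARCL1 and DKK3, SEMA3D and SEMA7A had medians of 353 and 42.7 CPM, but only 8 retinas had at least 10 such nuclei. SEMA7A in all ACs ran from 8.60 to 18.8 CPM in retinas of the 5.0.1 label and from 0.894 to 11.4 CPM in those of the 7.0.1 label, so that this group is not ranked against groups that rest on other sets of retinas.

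S-cones, with the blue opsin OPN1SW, were compared with L-cones, with the red opsin OPN1LW (1005 and 13095 nuclei). Mature 5 had 2 S-cones and was left out. Of 9 members 3 differed, beside 18.3% of all features. SEMA3A was at 2.68 to 93.9 CPM in S-cones (median 37.9) and 0.306 to 21.6 CPM in L-cones (median 5.60), higher in 12 of 14 retinas by 2.38 on the log2 scale (SE 0.298, edgeR adjusted p = 8.64e-08), with overlapping ranges. SEMA3E was at 6.15 to 191 CPM in S-cones (median 47.3) and 36.7 to 275 CPM in L-cones (median 120.5), lower in S-cones in 14 of 14 retinas with a log2 difference of -1.25 (SE 0.133, edgeR adjusted p = 2.46e-09). SEMA6D differed by -0.13 (525.8 against 559 CPM, edgeR adjusted p = 0.0199). Its call was lost without Infancy 4 (edgeR adjusted p = 0.0772) or Mature 4 (0.054), within the 5.0.1 and 7.0.1 labels alone (0.267 and 0.136) and without the nuclei of highest UMI counts (0.069), and the difference became 0.028 when nuclei with markers of several classes were kept. The difference of SEMA3E was -1.92 within the 7.0.1 label and -1.93 without the nuclei of highest UMI counts, and that of SEMA3A was 1.29 with mixed nuclei kept, all past the threshold. SEMA3D, at 277 and 292 CPM, did not pass (log2 difference -0.12, SE 0.0522).

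**Figure D4:**
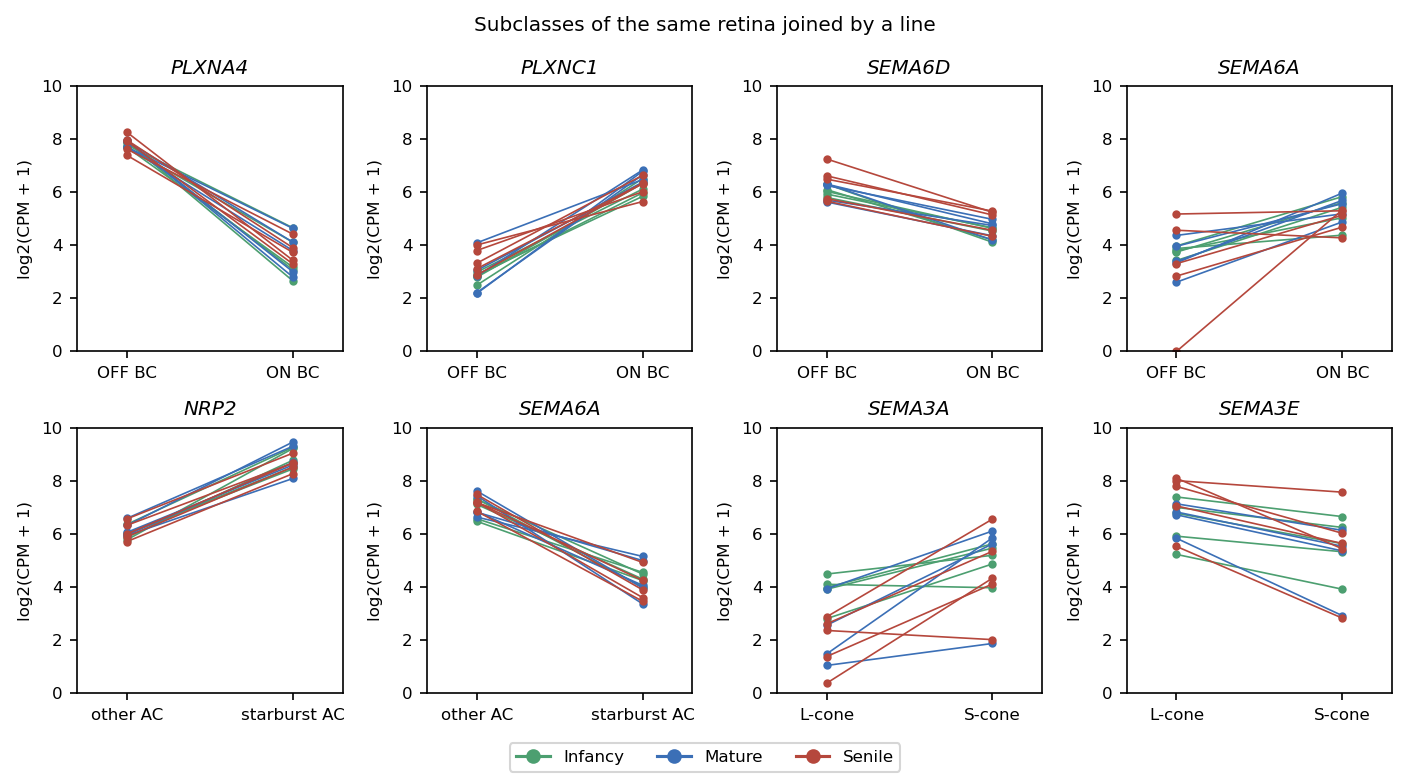
Level of members, as log2(CPM + 1), in pairs of subclasses, with points of the same retina joined by a line and coloured by stage. PLXNA4 falls and PLXNC1 rises from OFF to ON BCs in 15 of 15 retinas, NRP2 rises and SEMA6A falls from other to starburst ACs in 15 of 15, and SEMA3E is lower in S-cones than in L-cones in 14 of 14.

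Changes with age were few. Within each class the 3 stages were compared on summed counts with the Cell Ranger label as a term, and all comparisons share the retinas of their common stage. Of 123 tests of members in the 9 classes, 1 passed between Mature and Infancy (beside 0.933% of all features), 3 between Senile and Infancy (beside 1.41%) and 1 between Senile and Mature (beside 0.0142%). An unadjusted p under 0.05 was found in 16, 20 and 24 of these tests, or 13.0%, 16.3% and 19.5%, beside 11.2%, 9.37% and 9.22% of the tests of all features. The median log2 difference of the members was 0.04, -0.04 and -0.09 in these comparisons. Stage changes were simulated in BCs and Müller cells only, and only in features with a mean above 20 UMIs per retina. There 37% of 2-fold and 77% of 4-fold changes were recovered in BCs, and 28% and 91% in Müller cells, so that smaller changes could have been missed. Recovery was not simulated for members with fewer counts or for the other classes. All 5 calls fell in cones, with 1 of 21 members past the threshold between Senile and Infancy (beside 2.17% of features in cones) and 1 between Mature and Infancy (beside 1.5%), and in Müller cells, with 2 of 19 between Senile and Infancy (beside 1.41%) and 1 between Senile and Mature (beside 0.0938%). DESeq2 in place of edgeR also passed NRP1 in ACs in both comparisons with the Senile retinas and SEMA3A in cones between Senile and Infancy. The members that marked a class did not pass there: SEMA5A in Müller cells had means of 1490, 1545 and 1403 CPM in Infancy, Mature and Senile retinas, SEMA6A in HCs 952, 1071 and 872 CPM, PLXNA4 in BCs 188, 204 and 209.9 CPM and SEMA6D in cones 552, 539 and 579 CPM.

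NRP1 fell in Müller cells. Its level was 129.7, 139, 92.35, 159 and 247 CPM in the Infancy retinas, 244, 142, 263, 219.9 and 286 CPM in the Mature retinas and 79.7, 19.2, 77.0, 80.2 and 96.9 CPM in the Senile retinas. All Senile retinas were below all Mature ones and, but for the overlap of Senile 5 with Infancy 3, below the Infancy ones. The log2 difference was -1.70 between Senile and Mature (SE 0.231, edgeR adjusted p = 0.00319) and -1.24 between Senile and Infancy (SE 0.234, edgeR adjusted p = 0.00829). Within the retinas labelled 5.0.1 the means were 120.4, 193 and 49.4 CPM from Infancy to Senile, and within those labelled 7.0.1 203, 256 and 84.7 CPM. Without the label as a term the differences were -1.67 and -1.12 and neither passed (edgeR adjusted p = 0.053 and 0.0811). With nuclei of mixed markers kept they were -1.28 and -0.89, which did not pass either (0.0561 and 0.0634). ACs are a class with high NRP1. The summed level of 9 AC markers in Müller cells was 645 to 878 CPM in Infancy, 633 to 1037 CPM in Mature and 519 to 837 CPM in Senile retinas, and its part in the result was not tested. In ACs themselves NRP1 averaged 374 ± 131, 459 ± 137 and 311 ± 83.3 CPM (SD, n = 5 retinas each), with a Senile to Infancy difference of -0.49 that did not pass (edgeR adjusted p = 0.0858) but was -0.73 and passed under a stricter gate (0.0126).

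SEMA5B was the other member with a change in Müller cells. It stood at 88.5, 111, 93.5, 92.9 and 125 CPM in Infancy, 107, 28.9, 41.1, 74.0 and 84.1 CPM in Mature and 28.3, 48.0, 42.6, 34.4 and 58.6 CPM in Senile retinas. Infancy and Senile retinas did not overlap, and the Mature retinas overlapped with both. The Senile to Infancy difference was -1.34 (log2; SE 0.297, edgeR adjusted p = 0.0263), with means of 97.6 and 38.1 CPM within the 5.0.1 label and 109 and 45.2 CPM within the 7.0.1 label. This call was lost without any 1 of Infancy 2, Infancy 5, Senile 1, Senile 3 or Senile 4 (edgeR adjusted p = 0.0514 to 0.0997), under a stricter gate (0.0808) and without Mature 4 and Senile 3 (0.0598). Its direction was the same in each, with differences of -1.22 to -1.34. In astrocytes, where SEMA5B was highest, the stage means were 301, 356 and 271 CPM and did not differ past the threshold.

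In cones NRP2 fell and SEMA3C rose, both at low levels. NRP2 was at 7.49, 21.3, 14.4, 6.61 and 27.9 CPM in Infancy, 5.83, 5.38, 10.1, 6.61 and 6.52 CPM in Mature and 3.69, 0.803, 2.95, 1.95 and 2.80 CPM in Senile retinas. Every Senile retina was below every other one, and the Senile to Infancy difference was -2.73 (log2; SE 0.434, edgeR adjusted p = 0.00142), from 274 UMIs in Infancy and 45 UMIs in Senile cones. The means were 14.4 and 2.25 CPM within the 5.0.1 label and 17.2 and 2.56 CPM within the 7.0.1 label. When nuclei with markers of several classes were kept, the difference was -0.68 and did not pass (edgeR adjusted p = 0.486). BCs are a class rich in NRP2. The summed level of 7 BC markers in cones was 56.8 to 315 CPM in Infancy, 43.95 to 383 CPM in Mature and 31.8 to 135 CPM in Senile retinas, and its part in the fall was not tested.

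SEMA3C in cones was at 0.312, 0.30, 0.898, 2.81 and 1.12 CPM in Infancy, 9.53, 21.0, 7.62, 3.96 and 7.45 CPM in Mature and 1.85, 3.48, 4.42, 2.44 and 4.19 CPM in Senile retinas. Infancy and Mature retinas did not overlap. The Mature to Infancy difference was 2.95 (log2; SE 0.557, edgeR adjusted p = 0.00885) and rested on 28 UMIs in Infancy and 247 UMIs in Mature cones. It was 3.93 without Infancy 4 and 2.47 without Mature 2 and passed in both, while that between Senile and Infancy was 1.27 and did not pass (edgeR adjusted p = 0.428). Within the 5.0.1 label the means were 0.503 and 15.3 CPM, and within the 7.0.1 label 1.96 and 6.34 CPM. The summed level of 6 astrocyte markers in cones was 18.7 to 36.9 CPM in Infancy, 26.2 to 37.3 CPM in Mature and 23.3 to 43.4 CPM in Senile retinas, and SEMA3C in astrocytes had stage means of 463, 565 and 704 CPM. The summed level of 5 pigment epithelium markers in cones was 3.297 to 10.78 CPM in Infancy and 7.825 to 40.62 CPM in Mature retinas. In Senile retinas it was 3.487 to 20 CPM. The part of either list in the rise of SEMA3C was not tested.

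**Figure D5:**
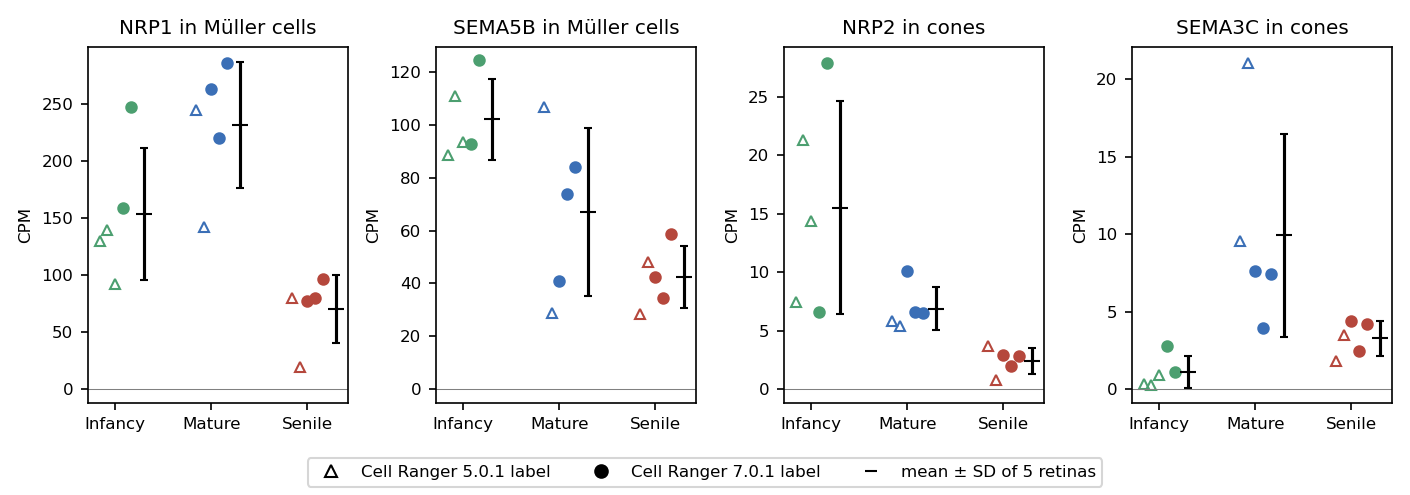
Level in CPM of the 4 members that passed a stage comparison, NRP1 and SEMA5B in Müller cells and NRP2 and SEMA3C in cones, with 1 point per retina (open triangles for the Cell Ranger 5.0.1 label, filled circles for 7.0.1) and the mean ± SD of 5 retinas. NRP1 is lowest in the Senile retinas (19.2 to 96.9 CPM), NRP2 in cones falls to 0.803 to 3.69 CPM and SEMA3C in cones is highest in the Mature retinas (3.96 to 21.0 CPM).

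No other member passed in the edgeR fits of all retinas with the filter, the label as a term and the 86376 nuclei, and some are given here that were picked after their values were seen. In cones SEMA3A averaged 16.6 CPM in Infancy and 6.74 and 6.19 CPM in Mature and Senile retinas (Senile to Infancy log2 difference -1.73, edgeR adjusted p = 0.19), and SEMA3E averaged 96.2, 90.2 and 177 CPM (1.11, edgeR adjusted p = 0.365). SEMA3E in cones passed without Senile 1 (1.55, edgeR adjusted p = 0.0148) and without the filter on low counts (1.10, 1.17e-07), and SEMA3A in cones without the filter (-1.71, 2.69e-05). NRP1 in ACs passed between Senile and Infancy without Infancy 4 (-0.59, edgeR adjusted p = 0.0194) and without the filter (-0.53, 0.000418). SEMA4F in RGCs passed between Mature and Infancy without Senile 3 (-0.48, edgeR adjusted p = 0.0427), and SEMA5A in astrocytes between Senile and Infancy without the filter (-1.58, 0.00955). In BCs PLXNC1 differed by 0.40 between Mature and Infancy (edgeR adjusted p = 0.165) and SEMA3E by 0.60 between Senile and Infancy (edgeR adjusted p = 0.229). Of 40 genes of the signalling path behind these receptors, 3 were not found and 2 were listed at 0, and over the classes 176 tests were made in each comparison, of which 1 passed between Mature and Infancy (beside 0.933% of all features), 1 between Senile and Infancy (beside 1.41%) and 0 between Senile and Mature (beside 0.0142%). MET, a receptor tyrosine kinase that couples to B-type plexins, rose between Infancy and Mature Müller cells by 1.16 (log2; SE 0.269, edgeR adjusted p = 0.046). DPYSL5, a collapsin response mediator protein, fell between Infancy and Senile Müller cells with a log2 difference of -2.08 (SE 0.437, edgeR adjusted p = 0.018). Between Senile and Mature, where none passed by edgeR, 21 tests (11.9%) had an unadjusted p under 0.05, beside 9.22% of the tests of all features. In the other comparisons these shares were 5.68% beside 11.2% (Mature and Infancy) and 7.39% beside 9.37% (Senile and Infancy).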

How the data were processed

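Nuclei of 15 frozen TS retinas were profiled by droplet sequencing (10x Genomics). Per the labels, the authors mapped reads to the genome TS_3.0 with Cell Ranger 5.0.1 or 7.0.1 and deposited raw UMI count matrices, 1 per retina. The headers of the matrices labelled 5.0.1 name 6.1.2, and the labels and the methods name different versions of the kit. Whether counting used strand is not given in the sources used here. The labels do not say whether retinas of 1 stage came from separate litters, so that p-values measure the spread between these samples.

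Barcodes were kept where above 200 genes and below 6000 were detected (119802 of 120437). Marker UMIs were clustered into 60 groups by a Poisson mixture. The 17 groups that were enriched more than 2-fold in simulated doublets (17322 nuclei) were set aside, as were 2 unnamed groups (4352), 2 of vascular or pigment cells (2423) and 9329 nuclei near a border between classes. No caller for single doublets was run. The thresholds of this gate were set after the data were seen. Of the barcodes, 1793 occurred in more than 1 library.

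UMIs were summed per retina and class (at least 10 nuclei). Stages were compared with edgeR 4.0.16 (R 4.3.3; filterByExpr, TMM, quasi-likelihood test, Benjamini-Hochberg adjustment over all features of a class, threshold 0.05) with the Cell Ranger label as a term. Classes and subclasses were compared with the retina as a block. The SE given with an edgeR difference is the absolute log2 difference divided by the square root of the F statistic of its test. SLC6A9-high ACs took the place of a planned comparison of glycinergic with GABAergic ACs, since GAD2 was listed at 0. The exact sign-flip permutation test used log2(CPM + 1) within retinas, with Benjamini-Hochberg adjustment over all features. DESeq2 1.42.0, other gates, filters and scalings, a replicate block and leaving out each retina were tried as alternatives. Fits were tested on simulated counts. Members with stage or subclass calls were named with full values, as were the 3 semaphorins, 3 plexins and the neuropilins with the largest difference between classes. Members and lists were chosen with earlier results of these data known. Python 3.11.15, numpy 2.4.6, pandas 2.3.3 and matplotlib 3.10.9 were used.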

Additional observations from a re-analysis of the deposited data

Results flagged for a closer look

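In the 12 stage groups of 5 retinas behind the called stage differences, 2 values lay far from the other 4 by Dixon's criterion, which chance alone passes in about 1 group of 20. NRP1 in Müller cells of Senile 2 was at 19.2 CPM (4 UMIs), where the other Senile retinas had 77.0 to 96.9 CPM. NRP2 in cones of Mature 3 was at 10.1 CPM, where the other Mature retinas had 5.38 to 6.61 CPM.

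Counts outside the comparisons were found on features annotated as antisense to members, 74 features over 22 members. SEMA6A had 22177 UMIs on such features, NRP1 9637 UMIs and PLXNA4 9414 UMIs over all libraries.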

How the results depend on the processing

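Between Senile and Infancy, 3 calls of members became 5 with DESeq2, 7 without a filter on low counts and 1 with nuclei of mixed markers kept, and 2 to 4 on leaving out each retina in turn. The 1 call between Mature and Infancy became 4 without the filter, 2 with the replicate block, 2 without Mature 4 and Senile 3 (chosen after seeing the data) and 2 without Senile 3 (1 to 2 on leaving out each retina). The 1 call between Senile and Mature became 2 with DESeq2, 5 without the filter, 0 without the Cell Ranger term and 0 with mixed nuclei kept (1 in each fit without 1 retina). Without the filter adjusted p fell at similar differences. NRP1 in Müller cells between Senile and Mature went from -1.70 (edgeR adjusted p = 0.00319) to -1.79 (8.1e-15). Calls of classes ranged from 166 to 175, of subclasses from 35 to 41 and of the highest class from 16 to 17 on leaving out each retina, the last being 14 without the nuclei of highest UMI counts. These counts are not set beside the share of all features that passed in the same setting, so they do not single out the members.

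With the replicate number as a block the stage counts were 3, 2 and 1, the added call being SEMA7A in RGCs (log2 difference -1.82, edgeR adjusted p = 0.0355). Of 15 pairs of retinas with the same number, 12 to 13 by class correlated above 0.1 with stage means removed, and 1 with the means of the Cell Ranger label removed too. Retinas numbered 1 and 2 all carry the 5.0.1 label and those numbered 4 and 5 the 7.0.1 label. Number and label are thus largely tied, and with few retinas per stage and label this check cannot tell whether same-numbered retinas share more.

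Differences that changed sign were PLXNA2 in ON against OFF BCs under the stricter gate (0.12), SEMA6D in S-cones with mixed nuclei kept (0.028) and SEMA3A in starburst ACs in the retinas labelled 5.0.1 alone (0.14). Of the other values of single members, 1210 kept their direction and side of the threshold and 57 kept the direction only. The cause of these changes was not tested. Depth limits NRP2 in Senile cones (45 UMIs) and SEMA3C in Infancy cones (28 UMIs), and rods, HCs, astrocytes and microglia, where 1 to 10 members could be tested between stages.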
